A study of Sus scrofa with 2 samples.

Results

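The genes described here encode proteins that bind actin monomers or take actin filaments apart: the thymosins TMSB10 and TMSB4X, the cofilin family members CFL1, CFL2 and DSTN, the profilins PFN1 and PFN2, the cyclase-associated protein CAP1, the twinfilin TWF1 and the cofilin cofactor WDR1. They were taken by gene symbol from a list of 10, and 9 of the 10 were paired with an identifier among the 25880 in the table. PFN2 had no identifier with that symbol and was not analysed here. The values come from RNA-seq of PSI, a clone of smooth muscle cells from pig ileum kept in DMEM with 10% FBS and 1% antibiotics, sequenced as 2 libraries. Both libraries belong to 1 group with no treatment, genotype or time contrast, so levels are described and no condition is compared. The labels name no separate cultures for the duplicates, so an SD (n = 2) covers library-to-library spread alone, possibly technical.

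Actin filaments grow by adding monomers at the barbed end and lose them mainly at the pointed end. Thymosins hold monomers in reserve, profilin carries them to growing ends, cofilins bind the filament and sever it, and cyclase-associated protein and WDR1 work with cofilin to return monomers to the pool. In smooth muscle the filaments are both the track for myosin and a structure that is rebuilt when the cell is stretched or stimulated.

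Levels are given as FPKM, in which reads are divided by the length of the gene and by the library total, so that genes of different length can be set side by side. Spacing of low FPKM values gave totals of 35176565 reads in replicate 1 and 32217729 in replicate 2. Detected means that neither library was under 1 FPKM. Of the visceral smooth muscle markers, 7 of 10 were detected, a share near the 61.5% of all genes with a symbol, so the count says little of the markers and their levels are given instead. ACTA2, ACTG2 and CNN1 lay between 254 and 693 FPKM, and LMOD1 had a mean of 45.1 and SMTN of 39.6. TAGLN had a mean of 5.46 and DES of 2.90, MYH11 (0.491) and SYNPO2 (0.148) were under 1, and MYOCD was listed at 0. The 10 markers summed to 1538 FPKM in replicate 1 and 1501 in replicate 2, most of it from ACTA2, ACTG2 and CNN1. The markers of other cells summed to much less. The fibroblast list had 6.56 and 5.90 FPKM, epithelium 0.0703 and 0.0928, and endothelium 1.92 and 1.596. Leukocytes had 3.55 and 3.87, enteric neurons and glia 0.156 and 0.287, and skeletal muscle 0.989 and 0.941. Interstitial cells of Cajal had 15.3 and 16.0, mostly from ETV1 (mean 14.3), with ANO1 (0.792) and KIT (0.573) under 1. Of the fibroblast markers, PDGFRA (2.24), DCN (2.20) and LUM (1.63) lay below DES but above MYH11 and SYNPO2, and FAP (0.156) and PI16 lay lower. The lists hold unlike genes, so the sums do not settle the cell type. Detected members numbered 3 of 5 for fibroblasts, 2 of 5 for leukocytes, 1 of 4 for endothelium, 1 of 3 for interstitial cells of Cajal and 0 in the other 3 lists. Of these markers, CDH1, VIL1, MUC2, CDH5, KDR, TIE1, PTPRC, CD3E, ELAVL4, PI16, MYOD1, MYOG and CKM were listed at 0 in both libraries. In a bulk sample, fewer cells of a type and less RNA per cell cannot be told apart.

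The measured genes spanned a wide range, from the thymosins, among the most abundant transcripts of the clone, to PFN1, below the median detected gene. All 9 were detected, where 61.5% of all genes with a symbol and 40.9% of all identifiers were. In both libraries 8 of them reached 10 FPKM, against 32.8% of genes with a symbol, and 5 reached 100 FPKM, against 2.98%. The median detected gene had 10.9 FPKM, and all of the 9 but PFN1 lay above it. Their median level was 103 FPKM, or 6.71 on the log2(FPKM + 1) scale, against 3.90 FPKM, or 2.29 on that scale, for all genes with a symbol. Together they held 2.11% of the summed FPKM of replicate 1 and 2.04% of that of replicate 2.

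**Figure D1:**
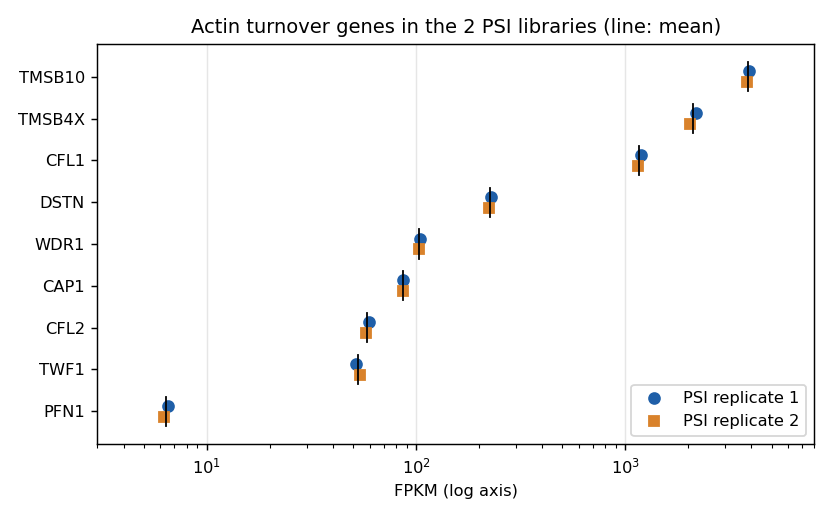
FPKM of each measured gene (log axis) in replicate 1 (circles) and replicate 2 (squares), with the mean as a line. TMSB10 stands at the top at 3880.3 and 3813 FPKM and PFN1 at the bottom at 6.49 and 6.26, and the libraries lie close together for every gene.

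The thymosins, small proteins that sequester actin monomers, were the highest of these genes. Replicate 1 held TMSB10 at 3880.3 FPKM, with 64153 recovered reads, and replicate 2 at 3813, with 57733. It ranked 6 among all identifiers, between ACTG1, the cytoplasmic gamma-actin, at 4072 ± 73.5 (SD, n = 2) and COL1A1, a fibrillar collagen chain, at 3608 ± 29.0. TMSB4X, which encodes thymosin beta-4, stood at 2168 FPKM with 58178 reads in replicate 1, and at 2026 with 49796 in replicate 2. Both libraries placed TMSB10 above TMSB4X, by 1.79-fold in replicate 1 and 1.88-fold in replicate 2, a log2 ratio of 0.88 ± 0.05 (SD, n = 2). The recovered reads, the smallest that fit, differed less, by 1.10-fold and 1.16-fold. The shortest length that fits TMSB10 is 470 bases, against 763 for TMSB4X. The thymosins made up 77.8% of the summed FPKM of the 9 genes in replicate 1 and 77.7% in replicate 2. The other thymosins on the list, TMSB15A and TMSB15B, had no identifier and were not analysed here.

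Among the filament-severing proteins, the non-muscle cofilin CFL1 was far above its relatives. CFL1 had 1188 FPKM in replicate 1 and 1144 in replicate 2. DSTN, which encodes destrin, also called actin-depolymerizing factor, had 229 and 222 FPKM. CFL2, the cofilin of muscle, had 59.4 and 57.7 FPKM and stood lowest of the 3 in both libraries, with no overlap between genes. The CFL1 level was 5.19 and 5.15 times that of DSTN and 20.0 and 19.8 times that of CFL2. As a share of the summed FPKM of the 3 genes, CFL1 held 80.5% and 80.4%, DSTN 15.5% and 15.6%, and CFL2 4.02% and 4.05% in replicates 1 and 2. These proportions moved less between the libraries than the levels did: the log2 ratio of DSTN to CFL2 was 1.95 in replicate 1 and 1.94 in replicate 2. By recovered reads, which do not correct for length, CFL1 was the highest of all 9 genes, with 71965 and 63475. These are the smallest reads that fit, so the order by true reads can differ.

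The cofactors of cofilin lay at middle levels. WDR1, also known as AIP1, a protein that speeds the disassembly of cofilin-decorated filaments, had 104 FPKM in replicate 1 and 103 in replicate 2. CAP1, which helps to recycle cofilin and to recharge actin monomers with ATP, had 86.7 and 86.3 FPKM. Of the 9 genes, these differed least between the libraries, with a coefficient of variation of 0.460% for WDR1 and 0.316% for CAP1. The median over detected genes was 2.57%, and 6 of the 9 lay below it. Each coefficient rests on 1 pair of libraries, and genes of like read depth were not set beside them. The low values are thus no sign that these genes are steady. TWF1, the twinfilin that binds monomers and filament ends and is built from cofilin-like domains, had 51.5 FPKM in replicate 1 and 53.8 in replicate 2. It was the single gene of the 9 that was higher in replicate 2.

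PFN1, the widely expressed profilin, was listed far below the others. Its level was 6.49 FPKM in replicate 1, with 714 reads, and 6.26 in replicate 2, with 631, and it ranked 7106 among all identifiers. TWF1, the next gene up, was 7.94 and 8.59 times higher. The genes with a symbol nearest to PFN1 in level were AIFM1, a mitochondrial flavoprotein, at 6.37 ± 0.114 FPKM (SD, n = 2) and SNX25, a sorting nexin, at 6.36 ± 0.321. Picked as the nearest in level, both differed from PFN1 by less than the spread between libraries, which that choice nearly fixes. PFN1 was also lowest by the smallest fitting reads, with 714 and 631 against 3838 and 3667 for TWF1. It was thus the lowest of the 9 by that count and by FPKM.

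In the full order TMSB10, TMSB4X, CFL1, DSTN, WDR1, CAP1, CFL2, TWF1 and PFN1, all 8 pairs of neighbours were separated, in that the lower library of the higher gene lay above the higher library of the lower gene. The narrowest step was from CFL2 to TWF1, at 1.15-fold in replicate 1 and 1.07-fold in replicate 2. The step from WDR1 to CAP1 was small too, at 1.197-fold and 1.195-fold. The widest was from TWF1 to PFN1. With 2 libraries no test of these steps was made, and the order per length depends on the gene models.

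The gene model of PFN1 stood apart from the rest of the 9 genes in its length. On Sscrofa11.1, RefSeq places PFN1 on chromosome 12 from 51962642 to 51965570, a span of 2929 bases including introns. The shortest length under which its FPKM values are whole reads was 3129 bases, 200 bases more than that span. No source used here gives where the counted bases lie. The next RefSeq gene, RNF167, a ubiquitin ligase at 10.5 ± 0.0623 FPKM (SD, n = 2), starts 457 bases away. Of 11852 genes with a recovered length and 1 RefSeq entry of their symbol, 202 (1.70%) had a counted length above the RefSeq span. PFN1 was the one among the 9 genes here. That share covers spans of every size, and a long span with introns is hard to exceed. The share among genes with spans as short as that of PFN1 was not computed, so PFN1 cannot be called rare in this. The part of the gene model in the PFN1 value was not tested.

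The other 8 shortest counted lengths fell within the RefSeq spans. TMSB10 (chromosome 3, from 59776236 to 59777252) had 470 of 1017 bases, TMSB4X (X, from 9649516 to 9651662) 763 of 2147 and CFL1 (2, from 6471558 to 6475019) 1722 of 3462. CFL2 (7, from 65090170 to 65094521) had 3919 of 4352 bases and DSTN (17, from 25998830 to 26050354) 2075 of 51525. WDR1 (8, from 6413338 to 6452383) had 6914 of 39046, CAP1 (6, from 95811485 to 95840576) 3421 of 29092 and TWF1 (5, from 74868586 to 74881220) 2117 of 12635. All are protein-coding genes, and no source used here gives the exons behind each counted length. The RefSeq model of CFL1 overlaps the sorting nexin gene SNX32 by 232 bases, and that of CAP1 contains LOC110261157, a long non-coding RNA gene of 991 bases. No source used here gives the strand setting of the counting, so the values of CFL1 and CAP1 are uncertain by the reads of those stretches, and SNX32 was listed at 1.15 ± 0.0201 FPKM (SD, n = 2). Thymosin, cofilin and profilin genes are known in human for near-identical processed copies elsewhere in the genome, so their values are also uncertain where the counting dropped or shared such reads.

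**Figure D2:**
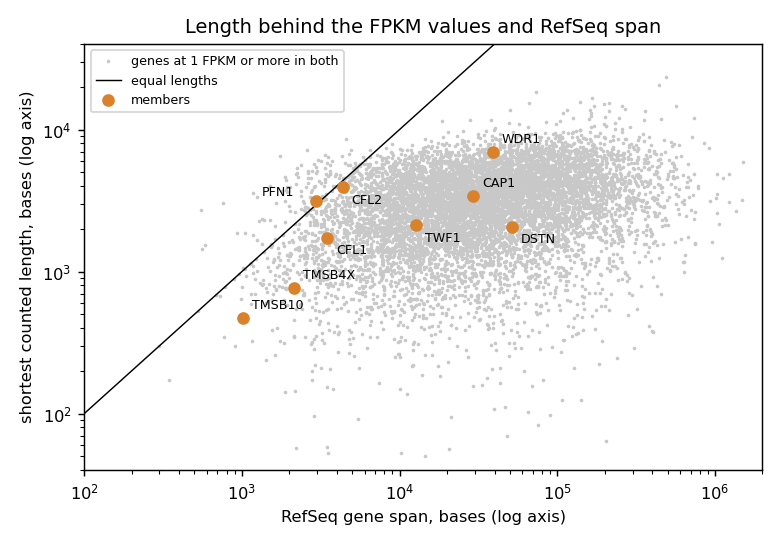
Shortest counted length of each gene against the span of its RefSeq gene (both in bases, log axes), with the measured genes in orange and other detected genes with 1 RefSeq entry in grey. PFN1 lies above the line of equal lengths, at 3129 against 2929 bases, and the other 8 lie below it.

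The identifiers were paired with symbols by a name table, and their numbering gave a partial check of position. For 7 of the 9 genes, the nearest numbered identifiers with a symbol on both sides belonged to RefSeq genes of the same chromosome within 1 Mb, PFN1 among them, between RNF167 and CHRNE. CAP1 had such a neighbour on 1 side and WDR1 on neither, so the pairing of WDR1 was not checked in this way.

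The libraries differed slightly but beyond counting error at TMSB4X and CFL1. TMSB4X was 1.07-fold higher in replicate 1 (adjusted p = 5.22e-25, two-sided exact binomial test of recovered reads, Benjamini-Hochberg over 16327 genes) and CFL1 1.04-fold higher (adjusted p = 4.15e-09, same test). These were 2 of the 9, where 1.11% of all genes passed, and 0.545% passed with replicate 1 higher. Of the 7120 genes with 500 or more reads in each library, as all 9 genes had, 2.26% passed. TMSB4X and CFL1 had 49796 reads or more in each library, and at such depth smaller differences pass. The share among genes that deep was not computed, so 2 of 9 says little of these genes. TMSB10, at 1.02-fold, did not pass (adjusted p = 0.113, exact binomial test), but did when the libraries were scaled to a median ratio of 1 over detected genes (adjusted p = 0.0380). The other 6 had adjusted p-values from 0.198 to 1 by the exact binomial test. In all, 8 of the 9 were higher in replicate 1, where 47.5% of detected genes were. The test compares 2 libraries and no condition, and since recovered reads are the smallest that fit the values, the true reads can be more. No gene of the 9 differed by more than 1.2-fold.

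**Figure D3:**
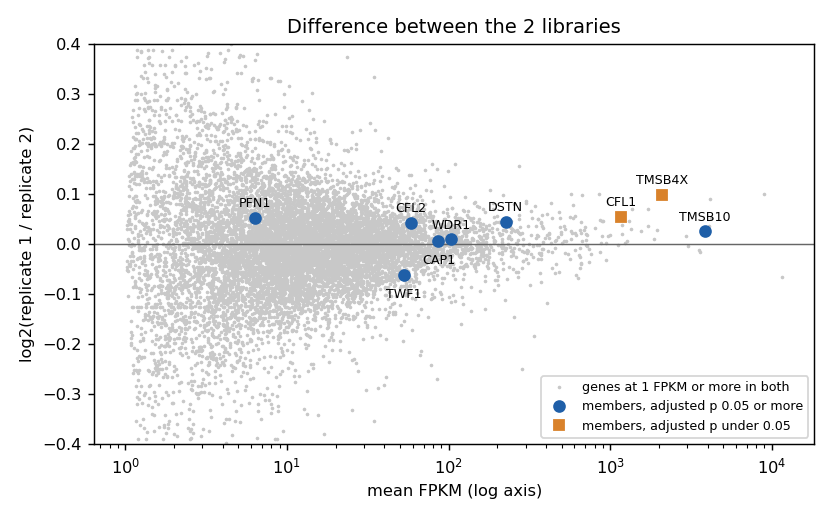
Log2 ratio of replicate 1 to replicate 2 against mean FPKM (log axis) for detected genes in grey and the measured genes in colour. TMSB4X and CFL1 (squares, adjusted p under 0.05) lie above 0, TWF1 is the one below 0, and genes beyond the vertical limits are not drawn.

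Set against actin, the protein they act on, the thymosin transcripts stood level with those of the cytoplasmic actins by FPKM, but not by recovered reads. TMSB10 and TMSB4X summed to 6048 FPKM in replicate 1 and 5838 in replicate 2. ACTB and ACTG1, the cytoplasmic beta- and gamma-actins, summed to 5992 and 5874, so the ratio was 1.01 and 0.994. With ACTA2, ACTG2, ACTA1 and ACTC1, the muscle actins, the actin sum rose to 7184 and 7028. The thymosins then stood at 0.836 ± 0.0079 of it (SD, n = 2), and thymosins with PFN1 at 0.837 ± 0.00791. CFL1, CFL2 and DSTN together stood at 0.204 ± 0.00207 of the 6 actins. By recovered reads in place of FPKM, the thymosins stood at 0.534 of ACTB and ACTG1 in replicate 1 and 0.523 in replicate 2. Against the 6 actins, the ratios by reads were 0.377 for thymosins with PFN1 and 0.298 for the cofilins. The distance between thymosins and cofilins thus depends on the lengths, as does the level standing with ACTB and ACTG1. The ACTB values rest on a shortest length of 848 bases and those of ACTG1 on 1195.

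**Figure D4:**
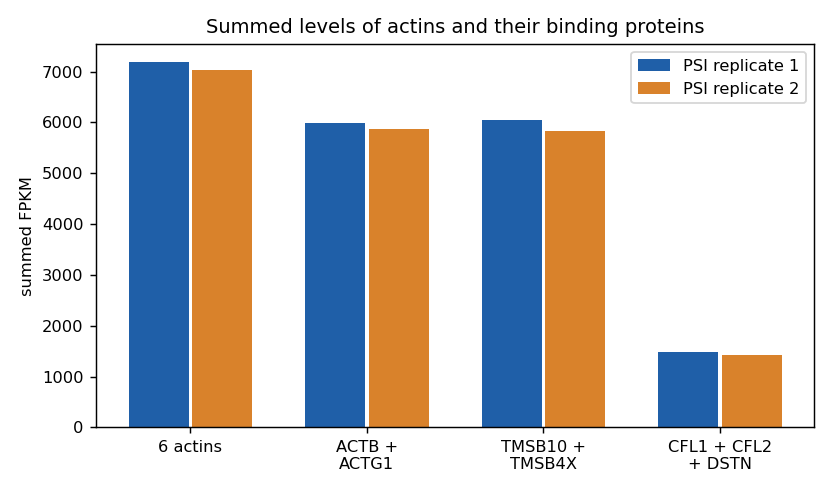
Summed FPKM of all 6 actins, of ACTB and ACTG1, of the thymosins and of the cofilin family in each library (bars, from 0). The thymosin sum, 6048 and 5838, stands level with that of ACTB and ACTG1, 5992 and 5874, and the cofilin family sum is 1476 and 1424.

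The enzymes that switch cofilin off and on were present at modest levels. Of the cofilin regulators, 11 of 12 measured were detected, 91.7% against 61.5% of all genes with a symbol, with a median of 8.61 FPKM against 3.90. The highest were ROCK1 at 29.8 ± 0.621 FPKM (SD, n = 2), ROCK2 at 26.7 ± 0.744, PAK4 at 26.3 ± 0.0528 and PAK2 at 23.3 ± 0.267, all kinases upstream of the LIM kinases. Of the kinases that phosphorylate cofilin itself, TESK1 had 22.7 ± 0.670 FPKM, LIMK2 8.02 ± 0.244, LIMK1 4.89 ± 0.360 and TESK2 1.08 ± 0.0991. Of the phosphatases that reactivate it, SSH1 had 7.20 ± 0.477, PDXP, also called chronophin, 6.34 ± 0.648 and SSH3 0.0201 ± 0.00125, while SSH2 had no identifier and was not analysed here.

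Relatives of the 9 genes were split between abundant and nearly silent ones. Of 15 measured, 9 were detected, 60.0%, a share near the 61.5% of all genes with a symbol. COTL1, a cofilin-fold protein that binds filaments, had 262 ± 0.262 FPKM (SD, n = 2), above DSTN. CORO1C, a coronin, had 84.1 ± 1.199, and drebrin (DBN1) and its relative DBNL had 69.9 ± 0.450 and 64.6 ± 1.16. TWF2 lay below its partner, at 6.07 ± 0.245 FPKM against 52.7 ± 1.57 for TWF1. CAP2, the muscle isoform of CAP1, was listed at 0 in replicate 1 and 0.0100 in replicate 2, a single recovered read. PFN4, a testis profilin, had 0.139 in replicate 1 and 0 in replicate 2, and GMFG, a glia maturation factor of blood cells, was listed at 0 in both, while its relative GMFB had 33.2 ± 1.87. PFN3 had no identifier, so PFN1 and PFN4 were the profilins measured.

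The machinery that spends the monomers ranged from abundant to nearly silent genes. Of the filament nucleators and elongators, 26 of 28 measured were detected, 92.9% against 61.5% of all genes with a symbol, with a median of 22.1 FPKM against 3.90. The highest were the Arp2/3 complex subunits ARPC2 at 284 ± 3.16 FPKM (SD, n = 2), ACTR3 at 189 ± 1.09 and ACTR2 at 146 ± 3.20, followed by VASP, an elongation factor that works with profilin, at 140.2 ± 0.499. Among the formins, which also draw on profilin-bound actin, FMNL3 had 30.9 ± 0.128, DAAM2 23.4 ± 0.704 and DIAPH1 21.4 ± 0.341. Each was listed above PFN1, whose own value is uncertain in the ways given above. The members under 1 FPKM were FMN2 (0.0762 ± 0.0284) and WAS (0.00999 ± 0.000620), a nucleation promoter of blood cells.

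Of the capping and severing proteins, 13 of 17 measured were detected, 76.5% against 61.5% of all genes with a symbol, with a median of 32.0 FPKM against 3.90. CAPZB, a subunit of barbed-end capping protein, had 189 ± 7.66 FPKM (SD, n = 2), EPS8 109 ± 2.06, CAPG 105 ± 1.12 and CAPZA1 79.2 ± 0.731. VIL1, villin of the gut epithelium, and SCIN, scinderin, were listed at 0 in both libraries. Of the 6 RPEL proteins, which bind monomers through RPEL motifs, 5 were detected, 83.3% against the same 61.5%. MRTFA, a coactivator of SRF that monomers hold in the cytoplasm, had 26.03 ± 0.809, PHACTR4 21.5 ± 0.0192, PHACTR2 12.3 ± 0.233 and MRTFB 3.82 ± 0.173. Of the actins 4 of 6 were detected, 66.7%, which is near that background. ACTA1 had 0.965 ± 0.0337 and ACTC1 was listed at 0. On the log2(FPKM + 1) scale the list medians were 3.26 for cofilin regulators, 2.82 for the relatives, 4.53 for nucleators and elongators, 5.04 for capping and severing proteins, 3.001 for RPEL proteins and 9.17 for actins, against 6.71 for the 9 genes.

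**Figure D5:**
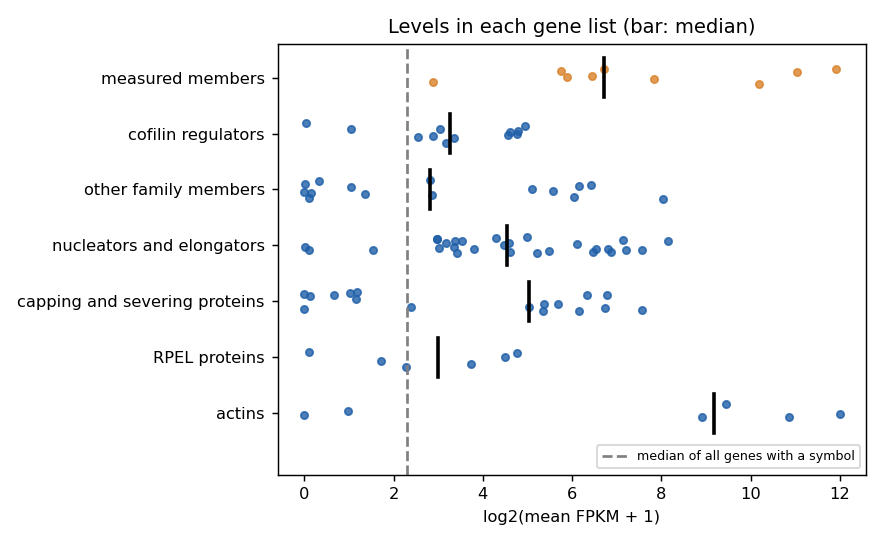
Level of each measured gene, log2(mean FPKM + 1), by list, with the list median as a bar and the median of all genes with a symbol (2.29) as a dashed line. The 9 genes (orange, median 6.71) lie above every list but the actins by the median, with PFN1 as the lowest point of the 9.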

How the data were processed

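RNA-seq was done on 2 libraries of 1 group. The table the authors deposited holds FPKM values, not pooled, per the file headers. The submitters' processing notes name TopHat2 2.0.12, HTSeq 0.6.1 and Sscrofa11.1; no source used here gives the annotation release, strand setting or filters. HTSeq by default leaves out multiply aligned reads and those in overlapping genes, which lowers genes with near-identical copies.

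Symbols from a name table matched 14857 of 25880 identifiers, and spans came from RefSeq (Sscrofa11.1) by symbol. Library totals were recovered from the spacing of low values. Each gene then received the shortest length from 50 to 30000 bases that made both values whole reads (tolerance 1.2 times the last digit's rounding), which succeeded for 100% of the 16327 identifiers above 0. Recovered reads are the smallest possible and summed to 90.8% of each total. The procedure was tested on simulated data. Reads are not independent molecules, so the binomial test covers counting error only. Python 3.11.15 and scipy 1.17.1 were used.

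The members and lists were chosen with earlier results of these data known. Named genes were all members, the 4 highest and those at 0 of each list, and the neighbours in level of TMSB10 and PFN1; other list genes, RNF167 and SNX32 were added for their role or position with values known. Alternatives varied scaling, pseudocount, detection level, background, denominators and test, and left out each library.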

Additional observations from a re-analysis of the deposited data

How the results depend on the processing

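Without replicate 1 or replicate 2, a mean of 2 libraries cannot move by more than their SD, so these values are no sign of stability: the median level of the 9 genes was 103 to 104 FPKM, the ratio of thymosins and PFN1 to the 6 actins 0.832 to 0.843, and that of the cofilins 0.203 to 0.206. With each library rescaled to a fixed sum (TPM scale), which changes the unit, the median level was 281. With ACTB and ACTG1 as the denominator the ratios were 1.00267 and 0.244, and by recovered reads 0.377 and 0.298, as other denominators and no length correction must give. The count of members differing between libraries was 2 by the exact binomial test and 0 past a ratio of 1.2; with median ratio scaling it was 3, TMSB10 being added. All 9 genes were detected at 0.5 and 5 FPKM, and 8 at 10 FPKM. No paired analysis was possible because the series has 1 group. Profilin 2 over profilin 1 was not run, since PFN2 had no identifier, nor was the RefSeq transcript length, since the table gives spans with introns. The lengths, and so the levels between genes, rest on the deposited values alone. The other settings, genes with 500 or more reads and the thymosins without PFN1, were chosen after seeing the data.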
